A study of Drosophila melanogaster with 18 samples.

Results

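Mitochondrial ribosomal protein genes were taken as all genes of the count table whose symbol begins with mRpL or mRpS followed by a number. The rule found 73 of 17373 genes, 47 of the large subunit (mRpL) and 26 of the small subunit (mRpS). A filter on low counts left 8585 genes to test, among them 72 of the 73 (46 large and 26 small). The symbol rule misses tko and bonsai, small subunit proteins with names of their own, which were counted with the other mitochondrial genes.

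RNA was sequenced from hand-dissected wing imaginal discs of wandering Drosophila melanogaster larvae of the last instar; these discs are the sheets of epithelium from which the wing and much of the thorax develop. The 3 groups were discs with wts149 clones dissected on day 9, the same genotype dissected on day 5, and day 5 controls whose clones carried an FRT82B chromosome with no wts allele named in the labels. All 3 carried ubxflp, a recombinase transgene that makes clones in discs, in a Minute background, in which the cells outside the clones are slowed by a dominant mutation, usually of a cytoplasmic ribosomal protein gene. Neither the Minute allele nor the share of each disc taken by clones is given in the sources used here, and whole discs also hold muscle precursors, tracheal tubes and adhering blood cells. wts encodes Warts, a kinase of the Hippo pathway, which holds back growth by keeping the coactivator Yorkie out of the nucleus. Each group had 3 numbered replicates, each sequenced as libraries a and b, which were summed here (n = 3). The labels do not say whether the numbers were separate batches of larvae, so p-values measure the spread between these samples. The controls are titled day 5, but their description field reads d5.d6, and no control discs of day 9 were analysed here, so between wts day 9 discs and controls genotype and age cannot be told apart.

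The mitochondrial ribosome makes the few respiratory chain and ATP synthase proteins encoded by mitochondrial DNA. Its RNA comes from the mitochondrial genome, while all its proteins are encoded in the nucleus, made in the cytoplasm and imported. Many descend from bacterial ribosomal proteins and carry their numbers, and others were added during the evolution of mitochondria. Growing discs need the products of these genes for respiration, and in Drosophila mRpL12 is required for growth driven by Cyclin D and its kinase.

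Library totals ran from 5611674 to 11193858 counts, and summed replicates held 14201662 to 22263073. Libraries a and b of a replicate differed by about the sampling noise (chi-square over degrees of freedom 0.994 to 1.06, with 2 of 9 pairs at p under 0.05), while replicates of 1 group differed by far more (11.1 to 58.9). The wts transcript itself stood at 269 ± 10.9 CPM in wts day 9 discs, 202 ± 14.6 in wts day 5 discs and 101 ± 5.38 in control discs (CPM after TMM scaling, the scaling factors of edgeR, mean ± SD, n = 3). The labels do not describe the lesion of the wts149 allele, so this RNA level does not check them. All 12 wing disc epithelium markers passed the filter, with a summed level of 3460 to 3778 CPM in wts day 9 discs, 3289 to 3541 in wts day 5 discs and 3514 to 3620 in control discs.

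Every tested member was detected in all 9 replicates. Levels of different genes were compared per length, as CPM per kilobase of exon (RPKM), with exon lengths from the Ensembl 115 annotation, which matched all 73 symbols. Over the 9 replicates the median member mean was 28.1 RPKM in the large and 27.0 RPKM in the small subunit, and the tested members spanned 8.01 to 66.8 RPKM. A tested member had between 835 and 17018 counts over all replicates, with a median of 3892.

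Over all exon bases the highest large subunit gene per length was mRpL12, whose protein forms the flexible stalk that recruits translation factors, at 66.8 ± 8.43 RPKM (SD over 9 replicates). mRpL30 followed at 61.7 ± 4.84 RPKM, or 67.0 ± 5.26 RPKM per base not shared with another gene, so the order of the pair was not settled. mRpL30 had 42.7, 37.8 and 38.3 CPM in wts day 9 discs, 41.7, 43.3 and 44.3 in wts day 5 discs and 48.7, 44.3 and 45.2 in control discs. At the other end, mRpL21 averaged 12.4 ± 1.73 RPKM and mRpL10, which anchors the stalk, 17.5 ± 1.75 RPKM. Per base not shared with another gene, mRpL10 came to 18.3 ± 1.83 RPKM, above mRpL54, which shares no exon base, at 17.7 ± 2.84 RPKM. mRpL10 had 15.8, 13.5 and 15.6 CPM in wts day 9 discs, 15.8, 14.8 and 19.1 in wts day 5 discs and 15.7, 14.9 and 17.1 in control discs, with all 3 groups overlapping. Stalk and anchor thus stood near opposite ends of the large subunit's range, though the order of mRpL10 and mRpL54 was not settled. mRpL21 had 16.3, 19.3 and 18.6 CPM in wts day 9 discs, 21.2, 25.4 and 24.0 in wts day 5 discs and 23.2, 22.1 and 19.0 in control discs.

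In the small subunit, mRpS7, a protein of the subunit's head, was highest per length at 57.3 ± 6.15 RPKM, and mRpS10, also in the head, was next at 48.6 ± 6.90 RPKM. mRpS7 had 46.2, 50.1 and 55.2 CPM in wts day 9 discs, 56.0, 53.9 and 64.3 in wts day 5 discs and 52.1, 47.3 and 47.9 in control discs. Over all exon bases the lowest were mRpS24 at 8.01 ± 1.77 RPKM and mRpS14 at 11.5 ± 1.72 RPKM. mRpS24 shares 55.3% of its exon bases with TBC1d7 on the opposite strand and mRpS14 shares 35.8% with neighbours, so both levels are uncertain, since the sources do not say whether counting used strand. Per base not shared with another gene, they came to 17.9 ± 3.97 and 17.9 ± 2.68 RPKM, above mRpS6, which shares no exon base and stood at 16.9 ± 2.16 RPKM. mRpS24 had 3.57, 4.71 and 4.27 CPM in wts day 9 discs, 4.87, 5.06 and 7.22 in wts day 5 discs and 3.75, 5.20 and 4.59 in control discs. mRpS14 had 8.32, 7.40 and 7.0 CPM in wts day 9 discs, 10.2, 10.1 and 9.82 in wts day 5 discs and 11.1, 8.89 and 9.54 in control discs.

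mRpL53, the member that the filter dropped, had 0 counts in every library. All 829 of its exon bases also belong to CG33155 on the same strand, which itself held 12 counts over the wts day 9 replicates, 5 over the wts day 5 replicates and 13 over the controls. Reads in exons shared by a pair of genes may have been assigned to neither, so the 0 does not measure expression. Of all 73 members, 43 shared at least 1 exon base with another gene and 30 shared none.

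**Figure D1:**
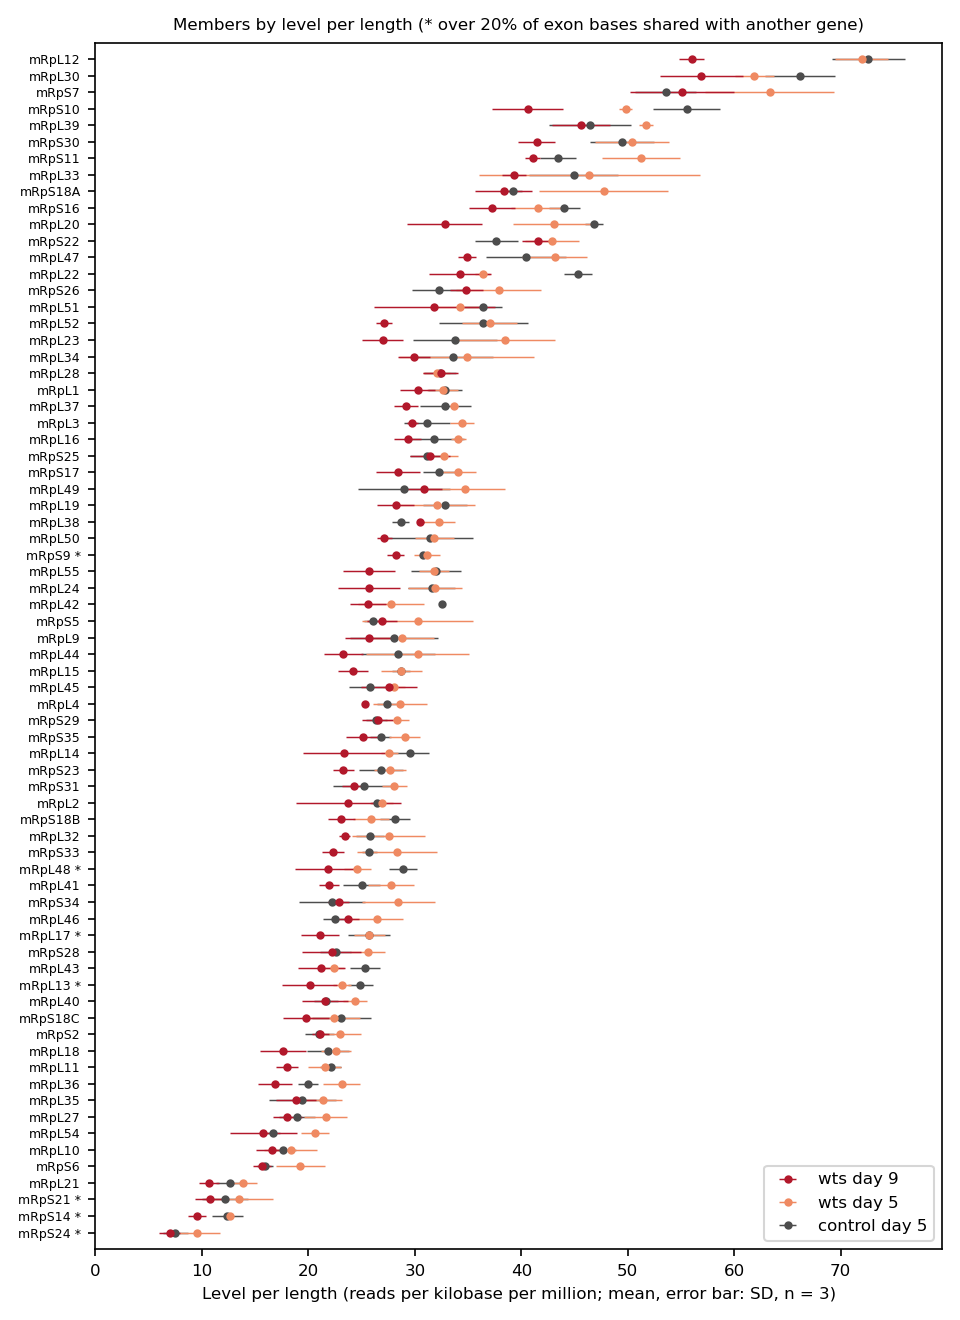
Level per length of the 72 tested members in RPKM (points: group mean, error bars: SD, n = 3), ordered by the mean over all 9 replicates, for wts day 9, wts day 5 and control day 5 discs. Most members lie between 15 and 50 RPKM, mRpL12, mRpL30 and mRpS7 lie at the top, and asterisks mark members that share over 20% of their exon bases with another gene.

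Summed over the subunits, the transcripts were lower in wts day 9 discs than in both other groups, without overlap. The large subunit sum was 1099.8, 1019 and 1065 CPM in wts day 9 discs, 1200.4, 1222 and 1271 in wts day 5 discs and 1225, 1166 and 1215 in control discs. The small subunit sum was 689, 668 and 686 CPM in wts day 9 discs, 757, 786 and 814 in wts day 5 discs and 749, 717 and 717 in control discs. The wts day 9 mean was 88.3% of the control mean for the large and 93.6% for the small subunit, and 86.2% and 86.7% of the wts day 5 mean. The wts day 5 mean came to 102% of the control mean for the large subunit, with overlapping replicates, and to 108% for the small subunit, without overlap. Scaled by library size alone, these were 99.0% and 104%, and the small subunit overlapped too, with the lowest wts day 5 replicate at 739 CPM and controls of 725 to 762 CPM. In bulk discs, fewer cells of a type and less RNA per cell cannot be told apart.

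The subunits were also set against each other. The ratio of the large to the small subunit sum was 1.6, 1.52 and 1.55 in wts day 9 discs, 1.59, 1.55 and 1.56 in wts day 5 discs and 1.64, 1.63 and 1.70 in control discs. On these summed libraries the wts groups overlapped each other and lay below all 3 controls, by a margin that the single library sets did not keep. In the a libraries alone the highest wts day 5 ratio was 1.613, against a lowest control ratio of 1.612. In the b libraries alone the highest wts day 9 ratio was 1.628, against a lowest control ratio of 1.622. The other wts group stayed below the controls in each set, at no more than 1.566 (wts day 9, a) and 1.560 (wts day 5, b). The mammalian relatives of mRpS30 and mRpS18A sit in the large subunit despite their names, and with both moved there the ratio was 2.08, 1.99 and 2.06 in wts day 9 discs, 2.10, 2.12 and 2.04 in wts day 5 discs and 2.20, 2.18 and 2.24 in control discs, again with no overlap between wts discs and controls in the summed libraries. No test was made of these sums and ratios.

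**Figure D2:**
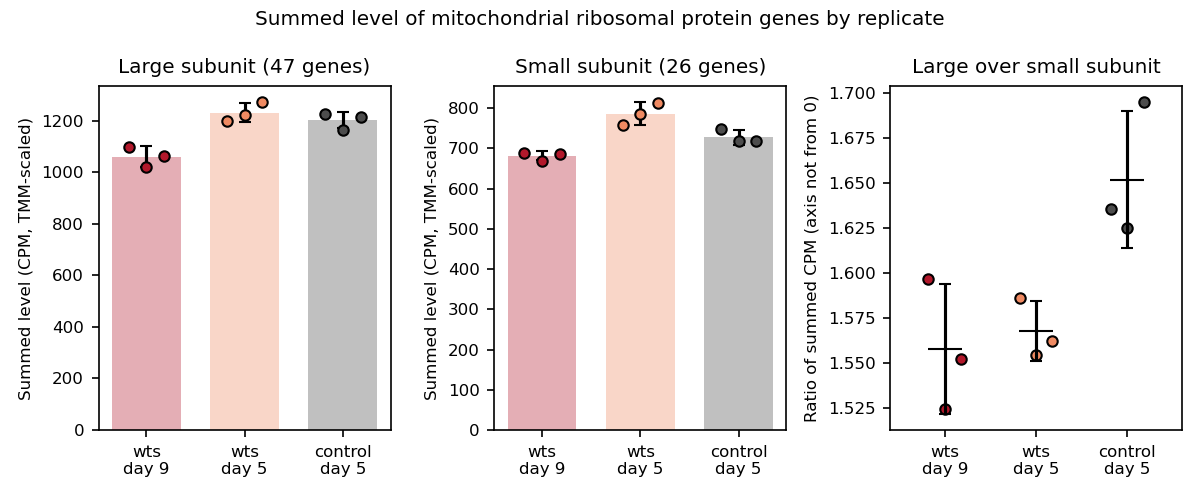
Summed CPM of the large subunit (left) and small subunit genes (middle) and their ratio (right, axis not from 0) by replicate for wts day 9, wts day 5 and control day 5 discs; bars or lines are means and error bars SD (n = 3). The wts day 9 sums lie below all others in both subunits, and both wts groups have ratios below the controls' 1.63 to 1.70 in these summed libraries. In the a libraries alone wts day 5 discs overlapped the controls, and in the b libraries alone wts day 9 discs did.

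Day 9 wts discs were then compared gene by gene with the controls, with edgeR's quasi-likelihood test and Benjamini-Hochberg adjustment over all 8585 genes. Of the 72 tested members, 13 fell (10 large and 3 small) and 0 rose at an adjusted p under 0.05, where 14.3% of all genes tested fell and 15.3% rose. The 13 were 18.1% of the tested members, and 29.6% of all genes were called in either direction. The count of falls was thus near the background. The absence of rises was also seen at an unadjusted p under 0.05 (0 members, against 20.6% of all genes) and with DESeq2. With that tool 12 members fell and 0 rose, where 15.6% of all genes fell and 16.8% rose. Estimates leaned one way in small steps: 59 of 72 lay below 0, against 51.8% of all genes, and the median log2 fold change was -0.20 in the large and -0.09 in the small subunit, against -0.01 over all genes tested. Replicates did not overlap for 34 members that were lower in wts day 9 discs (background 22.4%) and for 2 that were higher (background 22.1%). In the same comparison 12 of 14 tested markers of differentiated muscle fell and 0 rose, and of 10 tracheal markers 6 rose and 1 fell. Of 10 haemocyte markers 2 rose, and 1 of 6 fat body markers fell. The 2 tested salivary gland markers fell too. Their list summed to at most 1.81 CPM in wts day 9 discs, so only a fall could be called. Of 8 myoblast markers 1 rose and 1 fell, and of 12 wing disc epithelium markers 3 rose and 2 fell. The part of these cell types in the result was not tested.

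The strongest falls in the large subunit included the stalk and an assembly protein. mRpL20, whose bacterial relative is needed early in assembly of the large subunit, had 22.2, 18.5 and 18.5 CPM in wts day 9 discs, against 27.6, 28.3 and 28.6 in controls, a log2 fold change of -0.52 ± 0.10 (SE; edgeR adjusted p = 0.00452). mRpL12 had 41.9, 40.3 and 41.8 CPM in wts day 9 discs, against 55.9, 50.9 and 54.0 in controls (-0.37 ± 0.06, edgeR adjusted p = 0.00257). mRpL22, a protein that lines the exit tunnel of the nascent chain, had 36, 30.3 and 33.7 CPM in wts day 9 discs, against 45.4, 42.9 and 44.0 in controls (-0.40 ± 0.08, edgeR adjusted p = 0.00468). None of these genes shares an exon base with a neighbour, and for each all 3 wts day 9 replicates lay below all 3 controls.

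A further 3 of the large subunit genes that fell most encode proteins with no bacterial counterpart. mRpL52 had 15.3, 14.6 and 15.4 CPM in wts day 9 discs, against 19.6, 18.4 and 22.9 in controls (-0.43 ± 0.10, edgeR adjusted p = 0.0117, but 0.0532 without wts day 9 replicate 2). mRpL48 had 19.9, 15.4 and 16.4 CPM in wts day 9 discs, against 23.3, 23.5 and 21.6 in controls (-0.40 ± 0.11, edgeR adjusted p = 0.0181). mRpL42 had 16.2, 14.2 and 15.1 CPM in wts day 9 discs, against 19.3, 19.3 and 19.2 in controls (-0.34 ± 0.10, edgeR adjusted p = 0.0270). Leaving out control replicate 1 ended both of these calls (edgeR adjusted p = 0.0562 for mRpL48 and 0.0632 for mRpL42), as did leaving out wts day 9 replicate 2 (0.0811 and 0.111) or replicate 3 (0.0765 and 0.0866). That of mRpL42 also ended without control replicate 2 (0.0507), in the b libraries alone (0.0653) and without the count filter (0.0584). The remaining large subunit calls were mRpL11 at the base of the stalk, mRpL15, mRpL17 and mRpL55, with log2 fold changes of -0.25 to -0.31 and edgeR adjusted p-values of 0.0394 to 0.0495. These were the least stable: of the 18 alternatives, mRpL55 was lost in 14, among them all 9 fits without 1 replicate and DESeq2 (adjusted p = 0.0711). mRpL15 and mRpL17 were lost in 11 each, 7 of them fits without 1 replicate, and mRpL11 in 10, with 6 such fits and DESeq2 (0.0608).

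In the small subunit, mRpS10 fell most, to 34.8, 30.2 and 30.4 CPM in wts day 9 discs, against 41.4, 42.8 and 46.2 in controls (-0.45 ± 0.08, edgeR adjusted p = 0.00317). mRpS30, the most abundant of the 3 by reads, had 86.9, 82.2 and 89.2 CPM in wts day 9 discs, against 109, 103 and 96.6 in controls (-0.26 ± 0.07, edgeR adjusted p = 0.0206). mRpS18B had 20.2, 18.7 and 20.9 CPM in wts day 9 discs, against 25.6, 23.2 and 23.9 in controls (-0.28 ± 0.08, edgeR adjusted p = 0.0319). In each case no wts day 9 replicate reached the controls. The mRpS30 call was lost without control replicate 1 (0.0919) and without wts day 9 replicate 1, 2 or 3 (0.0593, 0.121 and 0.0605). The mRpS18B call ended without control replicate 1 or 3 (edgeR adjusted p = 0.108 and 0.0506) and without wts day 5 replicate 3 (0.0521). It also ended without wts day 9 replicate 1, 2 or 3 (0.0596, 0.132 and 0.0587). Further losses came in the b libraries alone (0.101), with a replicate block (0.0654) and without the count filter (0.0749).

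**Figure D3:**
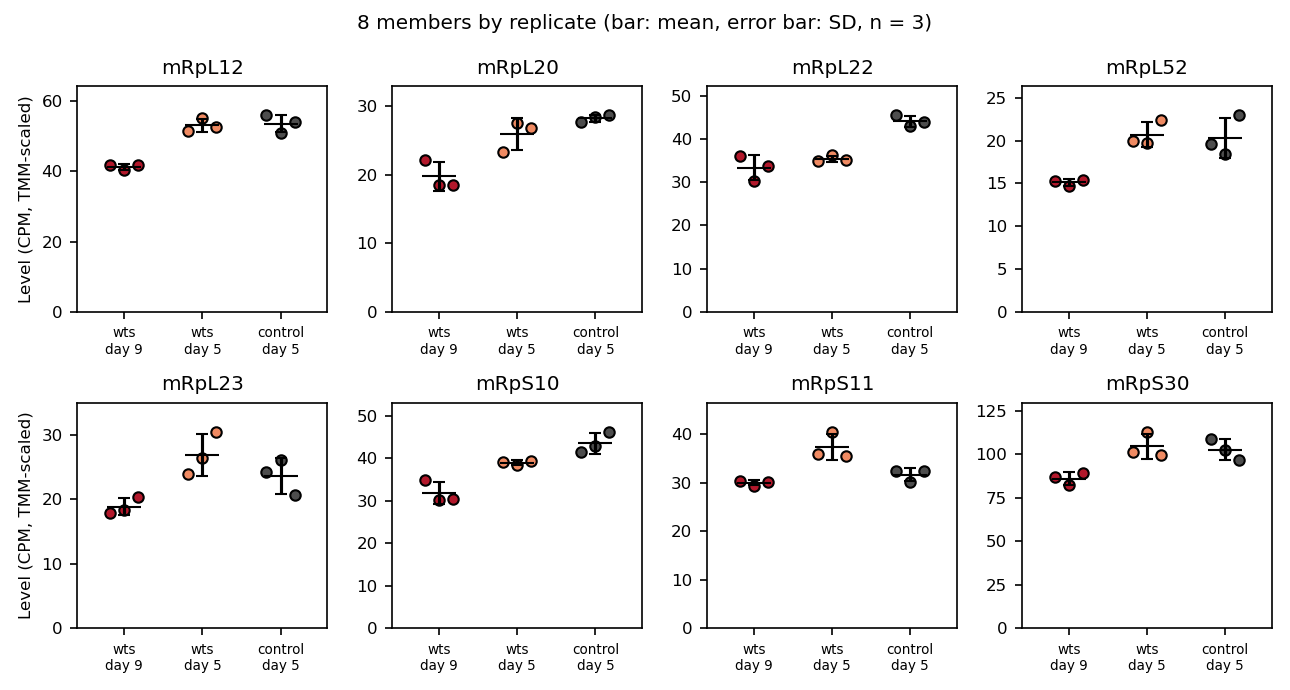
Level of 8 members (CPM after TMM scaling, axes from 0) by replicate in wts day 9, wts day 5 and control day 5 discs, with the mean (line) and SD (error bar, n = 3). mRpL12, mRpL20, mRpL52 and mRpS30 are lower in wts day 9 discs than in both other groups, mRpL22 is lower in both wts groups than in controls, and mRpS11 is higher in wts day 5 discs than in the others.

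mRpL12, mRpL20, mRpL22 and mRpS10 passed under all 18 alternatives, which were other tools, scalings and filters, the a or b libraries alone, a replicate block and the 9 fits without 1 replicate. When control replicate 1, or replicate 2 or 3 of the wts day 9 discs, was left out, 5 members fell in each fit. Of all genes tested, 9.59%, 6.66% and 7.79% fell in these fits. Scaled by library size alone, 22 fell, where 18.4% of all genes tested fell. That scaling also moved the whole table: 40.4% of all calls were then rises, against 51.6% with TMM.

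The few members on the other side did not pass. mRpL38 had 42.6, 43.2 and 42.3 CPM in wts day 9 discs, against 41.4, 39.7 and 39.3 in controls (0.09 ± 0.07, edgeR adjusted p = 0.341). mRpS22 had 58.0, 55.4 and 53.9 CPM in wts day 9 discs, against 51.6, 52.4 and 47.5 in controls (0.14 ± 0.07, edgeR adjusted p = 0.151). These were the 2 members whose wts day 9 replicates all lay above the controls.

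Medians were below 0 in each class of member and on each arm, and least so in the small subunit genes with no bacterial number. Large subunit genes with numbers of the bacterial range (up to 36) had a median log2 fold change of -0.22 in wts day 9 discs against controls with 6 of 28 called lower, and those with higher numbers -0.19 with 4 of 18. In the small subunit the medians were -0.15 for numbers up to 21, with 2 of 14 called, and -0.04 for higher numbers, with 1 of 12. Of these 12, 7 estimates lay below 0 and 5 above. These counts of falls stand beside the 14.3% of all genes that fell. By arm the medians ran from -0.14 on 3R, which carries wts and the FRT82B site and 21 of the members, to -0.19 on 2R and X. Members that share no exon base had a median of -0.13 with 8 of 30 called, and those that share some -0.18 with 5 of 42.

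**Figure D4:**
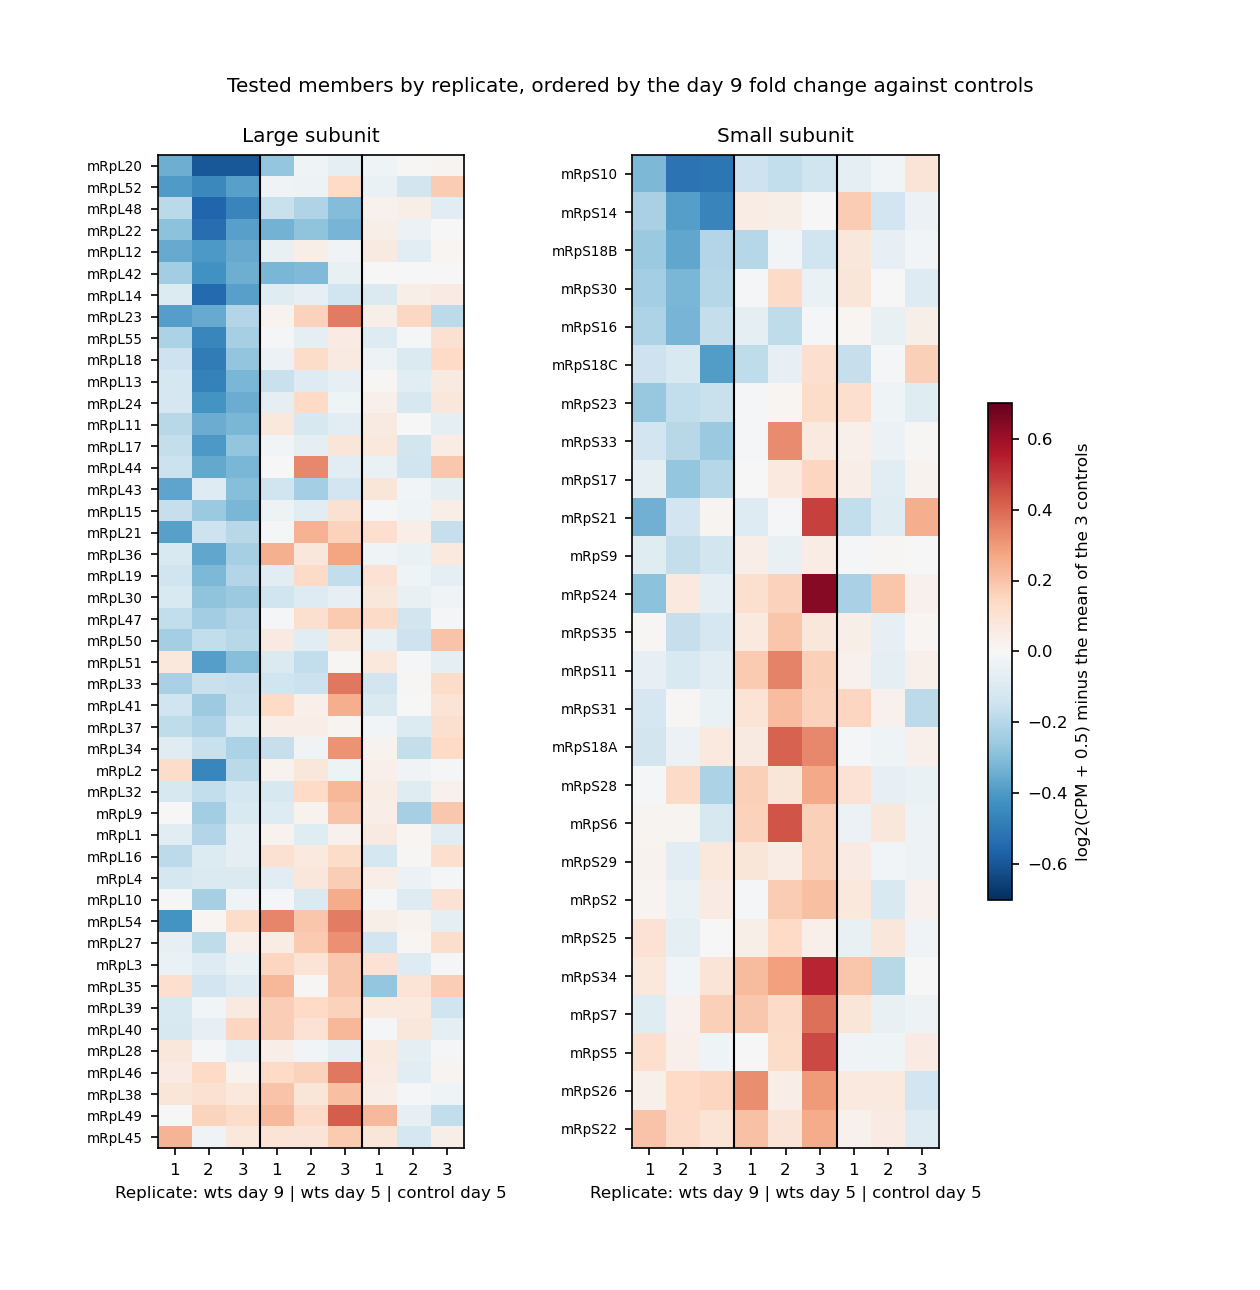
Level of the 72 tested members in each replicate as log2(CPM + 0.5) minus the mean of the 3 controls, large subunit left and small subunit right, with wts day 9, wts day 5 and control replicates side by side and rows ordered by the day 9 log2 fold change. Blue fills most of the wts day 9 columns of the large subunit, from mRpL20 down, while the lower rows of both panels are near 0 on day 9 and red in wts day 5 discs, most of all in replicate 3.

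The same wts day 9 discs were compared with wts day 5 discs, which asks what changed with age within the genotype. In this comparison 6 of 10 haemocyte and 3 of 8 myoblast markers rose and 6 of 14 tested markers of differentiated muscle fell, and their part in the values below was not tested. Of 72 tested members, 7 fell (5 large and 2 small) and 0 rose, where 2.9% of all genes tested fell, 5.44% rose and 8.34% were called in either direction. At an unadjusted p under 0.05, 34 members were lower (12.6% of all genes) and 0 higher (14.2% of all genes). DESeq2 called 10 members lower and 0 higher, where it called 423 of all 8585 genes lower and 800 higher. Estimates below 0 were found for 71 of 72 members, against 52.4% of all genes, and the exception was mRpL28 at 0.02 ± 0.07. The median log2 fold change was -0.21 in each subunit, against -0.01 over all genes tested. Replicates of 38 members were lower in wts day 9 discs without overlap (background 17.3%), and 0 were higher (background 18.2%).

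The 7 genes included proteins of the tunnel exit and the stalk of the large subunit and of the platform of the small subunit. mRpL23, whose bacterial relative docks chaperones at the tunnel exit, had 17.9, 18.3 and 20.4 CPM in wts day 9 discs, against 23.9, 26.3 and 30.4 in wts day 5 discs (-0.51 ± 0.12, edgeR adjusted p = 0.0299). mRpL36, a small zinc-binding protein, had 9.12, 7.56 and 8.34 CPM in wts day 9 discs, against 11.8, 10.5 and 12.1 in wts day 5 discs (-0.46 ± 0.12, edgeR adjusted p = 0.0453). mRpL52 had 19.9, 19.7 and 22.3 CPM in wts day 5 discs beside the wts day 9 values above (-0.45 ± 0.10, edgeR adjusted p = 0.0269). All 3 were lower in every wts day 9 replicate.

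mRpL20 had 23.3, 27.6 and 26.9 CPM in wts day 5 discs (-0.39 ± 0.10, edgeR adjusted p = 0.0409), and mRpL12 had 51.6, 55.1 and 52.6 (-0.36 ± 0.06, edgeR adjusted p = 0.0122), again all above the wts day 9 values. mRpS11, a protein of the platform of the small subunit, had 30.4, 29.4 and 30.1 CPM in wts day 9 discs, against 36, 40.5 and 35.6 in wts day 5 discs (-0.32 ± 0.08, edgeR adjusted p = 0.0343). Its controls, at 32.4, 30.2 and 32.4 CPM, overlapped the wts day 9 discs. mRpS30 had 102, 113 and 99.6 CPM in wts day 5 discs (-0.28 ± 0.07, edgeR adjusted p = 0.0369).

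These 7 calls depended on which replicates were kept and on the processing. With replicate 2 or 3 of the wts day 5 discs left out, or replicate 2 or 3 of the wts day 9 discs, 0 members passed, and of all genes tested 48, 35, 43 and 42 were then called lower. Without wts day 9 replicate 1, 3 passed, where 162 of all genes tested were called lower. In the b libraries alone the calls were mRpL15, mRpL18, mRpL21, mRpL52 and mRpS30 (233 of all genes lower). With a replicate block they were mRpL12 and mRpL52 (141 of all genes lower). The mRpL36 call was lost in 11 of 17 alternatives, among them the a and the b libraries alone (edgeR adjusted p = 0.137 and 0.0641). The direction moved less: 70 to 72 members lay below 0 under the alternatives that tested all 72, and 67 of 68 with a filter at a mean of 10 CPM.

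On day 5, wts discs were compared with controls, the pair of groups whose titles give the same day. Here 8 of 14 tested markers of differentiated muscle and 4 of 8 myoblast markers fell, and 0 of either rose. Of 10 tracheal markers 5 rose and 2 fell, and of 12 wing disc epithelium markers 2 rose and 4 fell. Among haemocyte and fat body markers, 1 of 10 and 2 of 6 fell. The 2 tested salivary gland markers fell as well. Their list summed to at most 0.572 CPM in wts day 5 discs, so only a fall could be called. The part of these cell types in the values below was not tested. Of 72 tested members, 0 rose and 1 fell, where 9.64% of all genes tested rose, 8.88% fell and 18.5% were called in either direction. At an unadjusted p under 0.05, 9 members were higher (17.0% of all genes) and 2 lower (17.5% of all genes). DESeq2 called 0 members higher and 1 lower, where 11.2% of all genes were called higher and 11.9% lower. The member that fell was mRpL22, with 34.9, 36.2 and 35.1 CPM in wts day 5 discs, against 45.4, 42.9 and 44.0 in controls (-0.32 ± 0.08, edgeR adjusted p = 0.0218). Every wts day 5 replicate lay below every control, and its wts day 9 level, given above, overlapped that of day 5 (-0.09 ± 0.08 between them, edgeR adjusted p = 0.523). The call was lost without control replicate 1 (0.0651), and without replicate 1 (0.0667) or 3 (0.0777) of the wts day 5 discs.

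Below the threshold, day 5 estimates were mostly above 0, which is a description and not a call. Over both subunits, 53 estimates lay above 0 and 19 below, where 49.6% of all genes lay above and 50.4% below. In the small subunit 22 of 26 estimates were above 0 and the median was 0.13, and in the large subunit 31 of 46 were above 0 and the median was 0.04, against -0.0018 over all genes tested. The large subunit median changed sign when counts were scaled by library size alone (-0.0079) and without control replicate 2 (-0.0044). Replicates of 14 members were higher in wts day 5 discs without overlap (background 19.3%) and of 7 lower (background 17.8%). The largest estimate was that of mRpS34, with 18.3, 19.2 and 22.9 CPM in wts day 5 discs, against 18, 13.6 and 15.7 in controls (0.36 ± 0.12, edgeR adjusted p = 0.0710). wts day 5 replicate 3 was the highest of its group, with a median of 0.12 above the control mean in the large and 0.16 in the small subunit on the log2(CPM + 0.5) scale. With library size alone, 37.7% of all calls in this comparison were rises, against 52.1% with TMM.

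**Figure D5:**
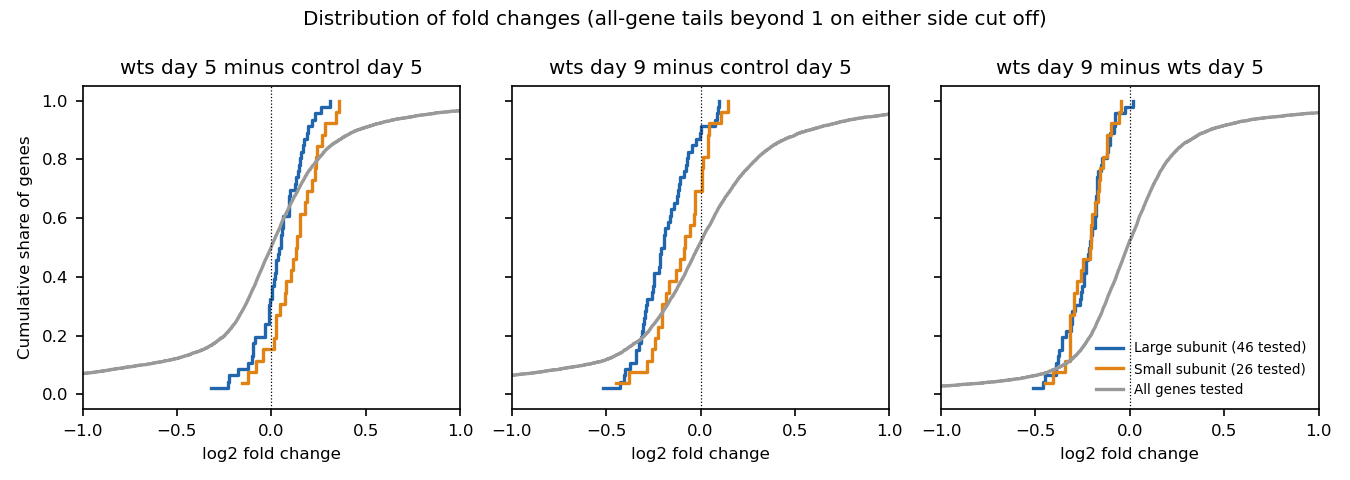
Cumulative share of genes (vertical) by edgeR log2 fold change (horizontal, cut at 1 on either side) for wts day 5 minus control, wts day 9 minus control and wts day 9 minus wts day 5. The tested large (blue, 46) and small subunit genes (orange, 26) rise steeply because their fold changes are small, and both lie almost wholly left of 0 in the comparison of the wts groups, with medians of -0.21.

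The 3 genes related to bacterial S18 were all expressed in every group. mRpS18A had 20.8, 22.2 and 23.9 CPM in wts day 9 discs, 23.8, 30.5 and 28.9 in wts day 5 discs and 22.7, 22.3 and 23.4 in controls, with the day 5 excess over controls at 0.28 ± 0.10 (edgeR adjusted p = 0.0832). mRpS18B, given above for day 9, had 21.1, 23.9 and 21.9 CPM in wts day 5 discs. mRpS18C had 10.9, 11.2 and 9.16 CPM in wts day 9 discs, 10.7, 11.7 and 13.2 in wts day 5 discs and 10.8, 12.1 and 13.7 in controls, and passed in no comparison (edgeR adjusted p of 0.241 to 0.849). Of the trio, mRpS18B was thus the one that passed, in wts day 9 discs against controls, with a call lost in 9 of 18 alternatives. The log2 fold changes of that comparison were -0.28 ± 0.08 for mRpS18B, -0.22 ± 0.14 for mRpS18C and -0.03 ± 0.10 for mRpS18A. Whether the genes differ from each other was not tested.

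Other genes of mitochondrial gene expression were examined as a list of 49, of which 44 were tested. On day 9 against controls 4 fell (14.3% of all genes) and 1 rose (15.3%) with a median of -0.02. On day 9 against wts day 5 discs 1 fell (2.9%) and 0 rose (5.44%) with a median of -0.17, and on day 5 against controls 4 rose (9.64%) and 0 fell (8.88%) with a median of 0.14. None of these counts was a larger share of the list than of all genes. At an unadjusted p under 0.05, 0 were higher on day 9 than in wts day 5 discs (14.2% of all genes). At the same threshold, 2 were lower on day 5 than in controls (17.5%). DESeq2 called 0 and 1 in these directions, where it called 9.32% and 11.9% of all genes. bsf, an RNA-binding protein that stabilises mitochondrial transcripts, averaged 165 ± 0.0396 CPM in wts day 9 discs and 212 ± 13.4 in controls (SD, n = 3; -0.36 ± 0.06, edgeR adjusted p = 0.00218). CG13163 (mIF3), a translation initiation factor, averaged 11.9 ± 0.655 CPM in wts day 9 discs and 16.1 ± 0.785 in controls (-0.44 ± 0.09, edgeR adjusted p = 0.00628). CG6404 (OXA1L), which inserts new proteins into the inner membrane, averaged 30.0 ± 2.41 CPM in wts day 9 discs and 36.6 ± 0.324 in controls (-0.29 ± 0.08, edgeR adjusted p = 0.0285). A further fall, in Hsp60A, was smaller (-0.22 ± 0.07, edgeR adjusted p = 0.0468).

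In this list 5 genes rose in 1 of the comparisons with controls. CG12736 (mEFTu2), an elongation factor, averaged 28.7 ± 0.809 CPM in wts day 9 discs and 22.9 ± 1.87 in controls (0.32 ± 0.08, edgeR adjusted p = 0.0185). CG12413 (mIF2), which brings the initiator tRNA to the small subunit, averaged 14.9 ± 0.596 CPM in wts day 5 discs and 11.2 ± 1.30 in controls (0.41 ± 0.11, edgeR adjusted p = 0.0274). mTTF, which stops mitochondrial transcription, averaged 21.1 ± 1.87 CPM in wts day 5 discs and 16.5 ± 0.397 in controls (0.36 ± 0.09, edgeR adjusted p = 0.0211). mTerf5 and the leucyl-tRNA synthetase gene Aats-leu rose on day 5 as well (0.33 ± 0.09 and 0.29 ± 0.08, edgeR adjusted p = 0.0371 and 0.0345).

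Of the small subunit proteins with names of their own, tko averaged 27.2 ± 1.69 CPM in wts day 9 discs and 35.3 ± 3.83 in wts day 5 discs (-0.37 ± 0.09, edgeR adjusted p = 0.0386), the fall of the list between the wts groups, with controls at 30.2 ± 1.01. bonsai averaged 34.9 ± 2.29 CPM in wts day 9 discs and 42.3 ± 3.16 in wts day 5 discs and did not pass (-0.28 ± 0.10, edgeR adjusted p = 0.101).

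The shares of all genes tested to set beside the next counts are those given above: 14.3% fell and 15.3% rose on day 9 against controls, 2.9% fell and 5.44% rose between the wts groups, and 8.88% fell and 9.64% rose on day 5. Among 63 tested nuclear genes of the respiratory chain and ATP synthase, 28 fell and 0 rose on day 9 against controls with a median of -0.21, 12 fell and 0 rose against wts day 5 discs with a median of -0.22, and 0 passed on day 5 against controls with a median of -0.02. At an unadjusted p under 0.05, 0 of them were higher on day 9 against controls (20.6% of all genes) or between the wts groups (14.2%). On day 5, 3 were higher (17.0% of all genes) and 3 lower (17.5%) at that threshold. DESeq2 called 0 higher on day 9 against controls (16.8% of all genes) or between the wts groups (9.32%). On day 5 it called 1 higher (11.2%) and 1 lower (11.9%). Among 87 tested cytoplasmic ribosomal protein genes, 3 fell and 3 rose on day 9 against controls with a median of 0.06, 5 fell and 0 rose against wts day 5 discs with a median of -0.12, and 13 rose and 0 fell on day 5 against controls with a median of 0.15. For these too, 0 were higher between the wts groups and 0 lower on day 5 at an unadjusted p under 0.05 and with DESeq2. The shares of all genes in these directions were 14.2% and 17.5% at the unadjusted p, and 9.32% and 11.9% with DESeq2. The comparisons share samples, and differences between these lists and the members were not tested.

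Markers of other cell types differed between groups or between replicates of a group, and the tracheal sum alone separated all 3 groups. The 16 differentiated muscle markers, of which Act79B was at 0 throughout, summed to 1045 to 1087 CPM in wts day 9 discs, 1102 to 1272 in wts day 5 discs and 1260.4 to 2141 in controls. The 10 tracheal markers summed to 4216 to 4695 CPM in wts day 9 discs, 3604 to 4098 in wts day 5 discs and 2489 to 2838 in controls, and the 8 myoblast markers to 423 to 476 CPM in wts day 9 discs, 316 to 351 in wts day 5 discs and 472 to 486 in controls. The 10 haemocyte markers summed to 127 to 224 CPM in wts day 9 discs, 73.4 to 93.1 in wts day 5 discs and 68.8 to 212 in controls, and the 6 fat body markers to 12.9 to 219 CPM in wts day 9 discs, 5.13 to 26.8 in wts day 5 discs and 12.6 to 178 in controls. The 6 salivary gland markers summed to at most 1.81 CPM in wts day 9 discs and 0.572 in wts day 5 discs, against 3.19 to 5285 CPM in controls, of which replicate 3 was the highest in salivary gland, fat body and haemocyte markers. Without control replicate 3, 10 members fell on day 9 against controls, where 15.3% of all genes tested fell. The part of these cell types in the mitochondrial ribosomal protein results was not tested.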

How the data were processed

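The deposited table holds raw counts per gene for 18 libraries, made by the authors with HTSeq, per the submitters' processing notes. No aligner, genome build, annotation, HTSeq version, counting mode or strand setting is given in the sources used here. All columns were mapped to samples by name. Libraries a and b with the same number were added together, giving 3 replicates in each of 3 groups. Genes were tested on the counts with edgeR 4.0.16 (R 4.3.3; filterByExpr, TMM, quasi-likelihood F-test, all groups in 1 fit, no covariate, adjusted p under 0.05 over 8585 genes), after the code was tested on simulated data. DESeq2 1.42.0 was an alternative. CPM were computed with TMM-scaled library sizes, and RPKM with exon unions of the Ensembl 115 annotation, used for lengths, arms and neighbours only. Intervals and errors cover these replicates only.

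The members and gene lists were chosen with earlier results of these data known. Genes named with full statistics were wts, up to 6 called members of each subunit with the largest absolute log2 fold change and any called against the majority. The 2 highest and 2 lowest members per length, members dropped by the filter, genes sharing a name stem and the 6 other mitochondrial genes with the smallest adjusted p were also named. mRpL28, mRpL38, mRpS22, mRpS34, Hsp60A, mTerf5, Aats-leu, tko and bonsai were singled out after their values were seen.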

Additional observations from a re-analysis of the deposited data

Results flagged for a closer look

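For 7 members the difference of wts day 9 discs from the controls was itself different from that of wts day 5 discs from the same controls, tested as wts day 9 minus wts day 5 in the edgeR fit. The differences of the log2 fold changes were -0.51 for mRpL23, -0.46 for mRpL36, -0.45 for mRpL52, -0.39 for mRpL20 and -0.36 for mRpL12 in the large subunit. In the small subunit they were -0.32 for mRpS11 and -0.28 for mRpS30. The log2 fold changes against controls were -0.33 on day 9 and 0.19 on day 5 for mRpL23, -0.24 on day 9 and 0.21 on day 5 for mRpL36, and -0.08 on day 9 and 0.24 on day 5 for mRpS11, and none of these passed in its own comparison. For mRpL12, mRpL20, mRpL52 and mRpS30 the day 9 value passed and the day 5 value was between -0.12 and 0.03. The 7 differences are the same calls as those between the wts groups, and 0 passed when replicate 2 or 3 of either wts group was left out.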

How the results depend on the processing

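The count of members lower in wts day 9 discs than in controls was 13, against 22 with library size alone, 7 without the count filter and 5 to 18 without 1 replicate. Of all genes tested, 14.3%, 18.4%, 8.26% and 6.66% to 15.3% fell in these fits. Between the wts groups the count of lower members was 7, against 4 without the count filter and 0 to 9 without 1 replicate. The numbers of all genes called lower were then 249, 209 and 35 to 308. On day 5 against controls, the count of higher members was 0 to 1 without 1 replicate (mRpS34, mRpS18A, mRpS26 or mRpL54, each in 1 fit), and that of lower members 0 to 1. In those fits 5.22% to 10.2% of all genes tested rose and 3.11% to 9.57% fell. The day 5 large subunit median, 0.04, turned to -0.0079 with library size alone and ran from -0.0044 to 0.10 without 1 replicate. The small subunit median on day 9 against controls, -0.09, was -0.14 with library size alone and ran from -0.092 to -0.049 without 1 replicate, and that between the wts groups, -0.21, was -0.27 in the b libraries. With mRpS30 and mRpS18A counted in the large subunit, chosen after seeing the data, its sum was 1170 CPM (wts day 9), 1364 (wts day 5) and 1328 (controls), and the small subunit's 573, 653 and 602. The ratio in the a and the b libraries alone was likewise chosen after seeing the data. For the counts, the cause was not tested, except that fits without 1 replicate have fewer samples and fits without the filter test more genes.

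Deviations of same-numbered replicates correlated weakly (r of -0.168 to 0.227, with 4 of 9 replicates closest to their own number). With 3 replicates per group, this does not settle whether a number names a batch shared by the groups. The summed tracheal markers fell from replicate 1 to 3 in each group. They were 4695, 4444 and 4216 CPM in wts day 9 discs, 4098, 3897 and 3604 in wts day 5 discs and 2838, 2579 and 2489 in controls. None of the other marker lists kept the same order of replicates in all 3 groups. With a replicate block, 10 members were lower on day 9 against controls (12.6% of all genes tested). Between the wts groups 2 were lower, where 141 of all genes tested were called lower.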
